A study of Mus musculus with 4 samples.

Results

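At embryonic day 16, the 4 RNA-seq libraries of mouse cortical microglia fell into pairs that cut across genotype. One pair, control 1 and cKO 2, held more RNA of neurons, neural progenitors and blood vessels, and is called the neural and vessel side. The other pair, control 6 and cKO 5, held more microglial RNA and is called the microglial side. The sides were chosen by the measured likeness of the libraries across genes and not by any label, and they cover all 4 libraries analysed here, 2 on each side. The values below therefore describe how the sides differ, and no test was made of that difference.

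The libraries labelled control carried the floxed Bach1 allele (Bach1 fl/fl), and those labelled cKO are a conditional knockout of Bach1 with a driver named Cx3 in the labels. The product of Bach1 is a repressor of transcription that heme binds and inactivates. All 4 libraries are labelled untreated, and each side holds 1 control and 1 cKO library. Whether each library is a separate embryo or a pool of embryos, and how the microglia were isolated, is not given in the labels. Library totals ran from 17233115 to 19305078 reads, and 3 reads corresponded to between 0.155 and 0.174 CPM (counts of each library scaled to the same fixed total), a floor that covers counting error only. Below, the level of a gene is given in CPM as 2 values against 2: control 1 and cKO 2 first, then control 6 and cKO 5.

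Microglia are the macrophages that settle in the brain before birth. They depend on the transcription factor PU.1, encoded by Spi1, and on the receptor Csf1r, and they make most of the brain's complement C1q. The embryonic cortex around them is built from radial glia, which divide to give intermediate progenitors and then neurons, and is supplied by vessels of endothelial cells wrapped by pericytes on a shared basement membrane. In bulk RNA, fewer cells of a type and less RNA per cell cannot be told apart, and this holds for every value below.

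Across the 15951 genes that passed the filter on low counts, cKO 5 and control 6 were the most alike pair, with a Pearson r of 0.970 across genes and 1730 genes at least 2-fold apart. Control 1 and cKO 2 had an r of 0.941 and 3498 genes at least 2-fold apart. Control 1 and control 6 were nearly as close, at an r of 0.937 and 3625 genes. The least alike pair was cKO 2 and cKO 5, with an r of 0.839 and 6988 genes. Control 1 therefore lay between cKO 2 and the microglial side. Among the 7489 genes with a mean of at least 20 CPM, control 1 had a slightly higher r with control 6 (0.866) than with cKO 2 (0.855), while its root mean square log2 difference was smaller from cKO 2 (0.72) than from control 6 (0.76). In these abundant genes, control 1 was at least 2-fold apart from cKO 2 for 1219 genes, from cKO 5 for 1116 and from control 6 for 944, so that by this count it was least like the library of its own side. These correlations are across genes, which are not independent replicates, and they are the kind of values that chose the sides.

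A gene was called higher on a side when the lower of that side's libraries was at least 2 times the higher of the other side's libraries, on CPM corrected by TMM factors (scaling factors that align the bulk of genes) plus 0.5. By this rule 1915 genes (12.01% of those tested) were higher on the neural and vessel side, and 293 (1.84%) on the microglial side. Without any minimum fold, the sides did not overlap for 5491 genes (34.4%) higher in control 1 and cKO 2 and for 4814 genes (30.2%) higher in control 6 and cKO 5. The median difference between the sides over all genes was 0.04 (log2), and it was 0.27 when only library totals were used for scaling. The genes called on the neural and vessel side took 8.63% of the reads of control 1, 13.9% of cKO 2, 2.01% of control 6 and 1.45% of cKO 5. Those called on the microglial side took 0.774%, 0.618%, 2.23% and 2.49% in the same order. Dropping 1 library relaxes the rule: the neural and vessel count then came to 3332 without control 1, and the microglial count to 2172 without control 1, 745 without control 6, 478 without cKO 2 and 492 without cKO 5.

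The marker genes of the sides showed both the split and its unevenness. Neurod6, a transcription factor of cortical excitatory neurons (GRCm38 chromosome 6, 55677822 to 55681263), was at 435 and 1653 against 134 and 95.4 CPM. The sides did not overlap, but cKO 2 stood far above control 1. Cldn5, the tight junction claudin of brain endothelium (chromosome 16, 18776847 to 18778260), was at 1535 and 1147 against 279 and 146 CPM. Rgs5, a regulator of G protein signalling that marks pericytes (chromosome 1, 169655501 to 169695813), was at 2669 and 2487 against 525 and 190.5 CPM. For both vessel genes, control 1 was the highest library and cKO 2 followed closely.

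Spi1 (chromosome 2, 91082390 to 91115756) was at 155 and 143 against 676 and 686 CPM. C1qc, which encodes the C chain of C1q (chromosome 4, 136889804 to 136893065), was at 730.4 and 725 against 4315 and 4278 CPM. Both genes split the libraries into 2 levels, with the libraries of a side nearly equal. Ratios between the sides were taken on the TMM-scaled values of the rule for calling genes, not on CPM as printed. The smallest ratio between libraries of opposite sides was 4.88-fold for Spi1 and 6.58-fold for C1qc. On the same scale it was 2.87-fold for Neurod6, 3.28-fold for Cldn5 and 3.78-fold for Rgs5. In CPM as printed, the smallest ratio was larger for Rgs5 than for Spi1, so the order of this pair depended on the scaling. Since these genes were picked as markers of the split, their separation is a description.

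**Figure D1:**
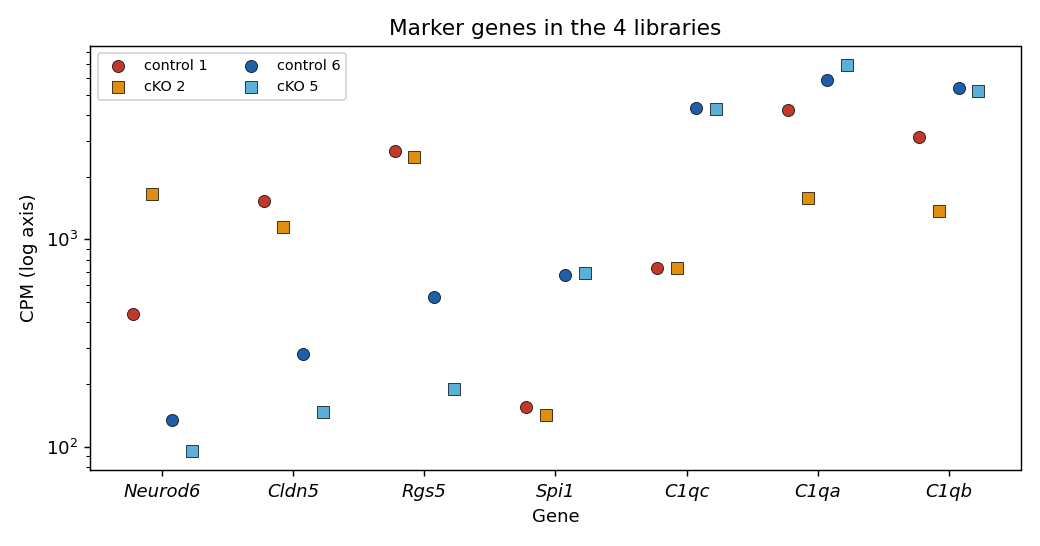
CPM (vertical axis, log scale) of the marker genes and of C1qa and C1qb in the 4 libraries, 1 point per library and no error bars, since each point is a single library. Spi1 and C1qc sit at 2 levels, whereas C1qa and C1qb of control 1 (4213 and 3103 CPM) lie nearer to the microglial side than to cKO 2.

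C1qc is the middle gene of a cluster that encodes the chains of C1q, and its neighbours did not follow it in control 1. C1qa (chromosome 4, 136895917 to 136898803) was at 4213 and 1591 against 5877 and 6924 CPM. C1qb (chromosome 4, 136880129 to 136886187) was at 3103 and 1375 against 5365 and 5219 CPM. In the 2 neighbours, control 1 stood closer to control 6 than to cKO 2 on the log2 scale, though for C1qb not in plain CPM. There cKO 2 was the low library, while for C1qc control 1 was as low as cKO 2. The 250 bases before the RefSeq start of C1qc and of C1qb (GRCm38.p6) are shown because these neighbouring genes differed in control 1. Both lie on the minus strand, at chr4:136892915-136893164 and chr4:136886201-136886450, and are printed 5′ to 3′ along the gene. Capitals mark matches on either strand to GAGGAAGT, a PU.1-type motif (ACTTCCTC on the other strand), or to CAGATGG, an E-box of the kind bound by NeuroD factors (CCATCTG on the other strand).
C1qc: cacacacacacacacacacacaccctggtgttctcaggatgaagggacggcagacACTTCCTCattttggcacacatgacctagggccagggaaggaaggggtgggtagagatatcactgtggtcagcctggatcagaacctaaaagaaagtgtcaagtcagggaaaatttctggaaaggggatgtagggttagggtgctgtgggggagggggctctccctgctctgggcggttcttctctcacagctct
C1qb: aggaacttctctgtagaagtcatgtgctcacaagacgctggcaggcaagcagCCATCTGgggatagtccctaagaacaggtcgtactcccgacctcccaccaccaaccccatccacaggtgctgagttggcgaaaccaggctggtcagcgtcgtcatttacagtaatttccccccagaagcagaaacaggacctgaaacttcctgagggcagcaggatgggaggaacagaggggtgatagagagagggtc
The PU.1-type letters in C1qc begin 195 bases before its RefSeq start, and the E-box letters in C1qb begin 198 bases before its RefSeq start. For C1qc the deposited gene position reaches further, to 136893065, which lies inside the window shown. Part of that window is therefore within the gene by the deposited position, and the letters lie nearer to that start.

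Over whole promoter windows of 300 bases, the PU.1-type letters were no more frequent among called genes of either side than among all genes. GAGGAAGT was held by 3.15% of the 14433 promoters of tested genes, by 2.75% of the 218 promoters of genes called on the microglial side and by 2.24% of the 1831 promoters of genes called on the neural and vessel side. The 27 promoters of the microglia list held it in 3 cases (11.1%). CAGATGG was held by 3.54% of all promoters, 3.67% on the microglial side and 5.19% on the neural and vessel side. It was also in 5 of the 27 microglia promoters and in 3 of 23 promoters of the pan-neuronal list. A match is a run of letters and not a site of binding, and the motifs do not overlap each other in sequence.

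Genes of brain endothelium were higher in both control 1 and cKO 2. Of the 24 genes of the endothelium list, 23 were tested, and 20 of these were called on the neural and vessel side, against the background of 12.01%. All 23 were without overlap, beside 34.4% of all genes. Their median difference between the sides was 2.29 (log2), beside 0.04 for all genes. Summed over the list, the level was 8141 and 6102 against 1797 and 1203 CPM. Esam, an adhesion molecule of endothelial junctions, had the largest difference, at 356 and 246 against 48.9 and 26.0 CPM. Slc2a1, the glucose transporter of the blood-brain barrier, was the most abundant member, at 2278 and 1529 against 612 and 477 CPM, and fell just short of the 2-fold rule. Cd34, at 505 and 393 against 201 and 167 CPM, was the member with the smallest difference.

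Endothelial RNA also differed within each side in the same sense, the control library being the higher. In cKO 2, 22 of the 23 genes were below control 1, with a median difference of -0.57 (log2). The exception was Flt1, a VEGF receptor, at 278 CPM in control 1 and 322 CPM in cKO 2. Between cKO 5 and control 6 the median was -0.79. Each of these differences compares 1 library with 1 library and has no replicate check.

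Pericyte genes followed the vessels. Of 17 listed genes 15 were tested and 13 were called on the neural and vessel side, beside 12.01% of all genes. Their median was 2.50 (log2) over those tested. Their summed level was 4152 and 3697 against 804 and 307 CPM, so that cKO 5 was the lowest library. Pdgfrb, the PDGF receptor that recruits pericytes, was at 192 and 143 against 28.5 and 9.74 CPM. Kcnj8, a potassium channel subunit of pericytes, was at 449 and 429 against 96.9 and 39.9 CPM. Both genes showed the sides apart and cKO 5 below control 6. Acta2, the smooth muscle actin, reached 2.195 CPM in cKO 2, its highest library, and its sides overlapped.

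Fibroblast and matrix genes split in the same way. Of 14 meningeal fibroblast genes 8 were tested and 6 were called on the neural and vessel side, beside 12.01% of all genes. The median of the tested genes was 2.46. The collagen gene Col3a1 was at 69.7 and 59.8 against 9.86 and 4.87 CPM. Cd248, a membrane glycoprotein of pericytes and fibroblasts, was at 213 and 232 against 59.0 and 9.01 CPM. Of the 13 basement membrane genes 11 were called on that side (beside 12.01% of all genes), with a median of 2.22. After TMM scaling all 13 were lower in cKO 2 than in control 1 and lower in cKO 5 than in control 6. In CPM as printed, Lamb2, a laminin chain, was level within the side (98.3 CPM in control 1 and 100.1 CPM in cKO 2). Col4a1, a chain of the type IV collagen network, was at 818 and 644 against 106 and 60.0 CPM. Sparc, a matrix glycoprotein, was the member that went the other way: it was at 1706 and 903 against 1588 and 1225 CPM, the controls were the higher libraries and the sides overlapped.

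Neuronal RNA was highest in cKO 2 alone, and control 1 was intermediate. All 18 pan-neuronal genes were higher on the neural and vessel side without overlap, beside 34.4% of all genes. By the 2-fold rule 9 of them were called (beside 12.01%), and the 18 had a median of 2.22 (log2). Their summed level was 1319 and 4563 against 449 and 419.5 CPM, so that cKO 2 stood alone and control 1 came next. All 18 were higher in cKO 2 than in control 1, with a median difference of 1.73. The 2 microglial-side libraries differed by a median of -0.16 between cKO 5 and control 6. Dcx, the microtubule protein of migrating neurons, was at 226 and 616 against 59.5 and 58.1 CPM. Map2, a microtubule protein of dendrites, was at 173 and 636 against 57.0 and 48.7 CPM. Without cKO 2 the list median was 1.35, and without control 1 it was 3.05.

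Genes of cortical excitatory neurons were less uniform. Of 16 genes 8 were called on the neural and vessel side (beside 12.01% of all genes) and 10 were higher there without overlap (beside 34.4%), with a median of 1.56 that was 0.68 without cKO 2 and 2.56 without control 1. Neurod6, given above as a marker, had the highest level among the called members. Sla went the other way, at 194 and 123 against 261 and 279.8 CPM. Sla encodes an adaptor that blood-lineage cells also express. Tle4, a corepressor of deep-layer neurons, was also higher on the microglial side without overlap after TMM scaling, though not in CPM as printed (20.7 and 20.9 against 18.7 and 27.9 CPM).

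The other neuronal lists leaned to cKO 2 as well. Of 13 tested interneuron genes none was called on the neural and vessel side, beside 12.01% of all genes. Without overlap 10 were higher there, beside 34.4% of all genes, and the list median was 1.34. Dlx2, a homeobox factor of interneurons, was at 21.5 and 98.5 against 17.7 and 12.9 CPM. Of 5 tested Cajal-Retzius genes 1 was called (beside 12.01% of all genes), too few to set apart from that share. That gene was Ndnf, and the most abundant, Calb2, was at 3.55 and 40.5 against 3.37 and 2.49 CPM. In both genes cKO 2 was the high library. Ndnf, a secreted protein of these cells, was at 2.40 and 5.78 against 0.23 and 0.57 CPM, so that control 1 also stood above the microglial side. Without cKO 2 the interneuron median was 0.78 and the Cajal-Retzius median 0.13, beside 1.38 with all libraries, and without control 1 the latter was 2.41.

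Radial glia genes were higher in both control 1 and cKO 2, and more so in cKO 2. Of 15 tested radial glia genes 11 were called on the neural and vessel side, beside 12.01% of all genes. The list had a median of 2.51 (log2) and a median difference of 1.15 between cKO 2 and control 1. Ptprz1, a receptor phosphatase of radial glia, was at 131 and 323 against 33.9 and 26.7 CPM. Vim, the intermediate filament vimentin, was nearly equal in control 1 and cKO 2, at 162 and 174 against 34.6 and 44.9 CPM. Hes1, a Notch target, was the member whose sides overlapped, at 15.9 and 42.2 against 24.3 and 24.1 CPM.

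Among the intermediate progenitor genes 4 of 10 were called on the neural and vessel side, beside 12.01% of all genes (median 1.64, and 0.93 without cKO 2). Neurod1, a proneural factor, was at 28.3 and 109 against 4.41 and 4.87 CPM. Of 13 astrocyte genes 9 were tested, and 7 of these were called (beside 12.01% of all genes, median 2.45). S100b, Gjb6 and Agt lacked a count in at least 1 library, and Ntsr2 was below the filter. The sides overlapped for Aqp4, at 2.98 and 10.4 against 1.39 and 6.11 CPM. Mlc1, a membrane protein of astrocyte endfeet, was at 55.3 and 126 against 9.57 and 6.42 CPM, and Gja1, the astrocyte connexin that fibroblasts also make, was at 113 and 94.3 against 29.9 and 16.01 CPM. None of the 7 tested genes of the oligodendrocyte lineage was called on either side, beside 12.01% and 1.84% of all genes. Of these 7, 4 were higher and 3 lower on the neural and vessel side, with a median of 0.24. The median was -0.51 without cKO 2, 0.93 without control 1, 0.62 without control 6 and 0.50 without cKO 5. Mbp, a myelin protein and the most abundant member, was at 18.6 and 10.1 against 26.9 and 21.03 CPM, and Olig1, the member with the largest difference, was at 8.53 and 29.2 against 4.35 and 1.502 CPM.

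**Figure D2:**
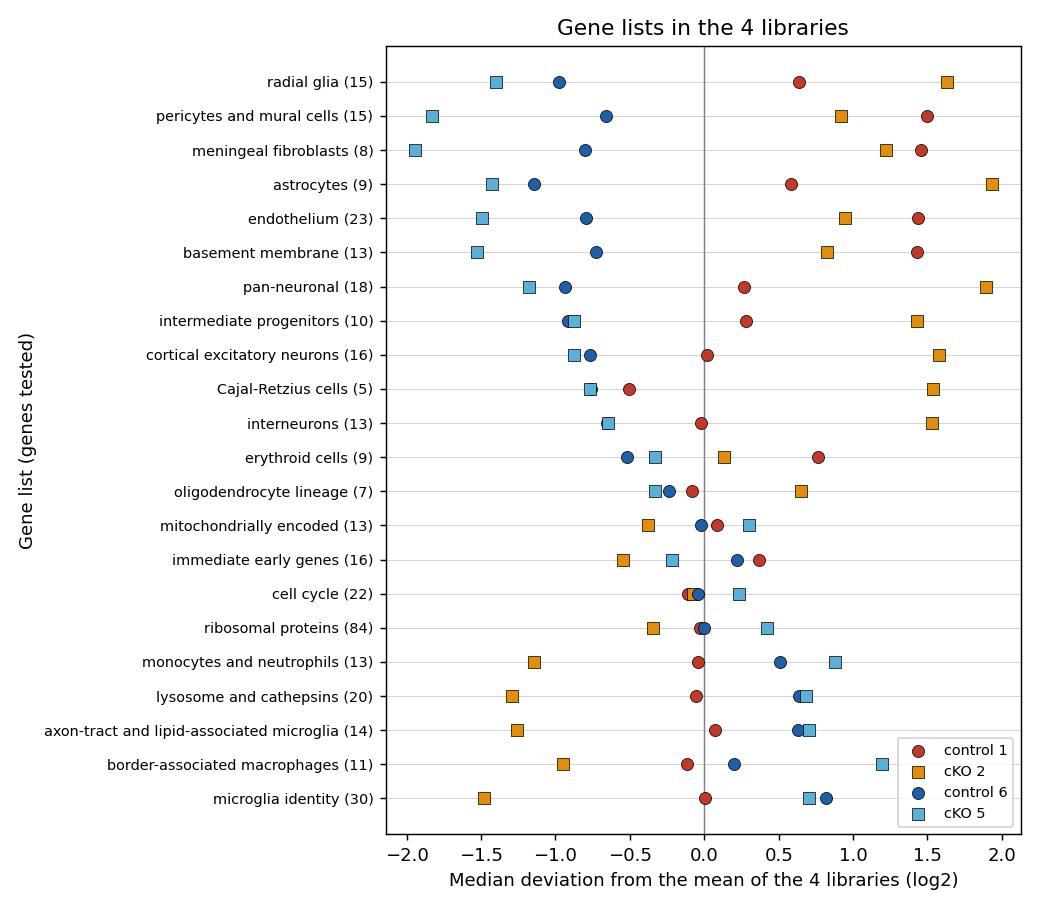
Median deviation of each gene list from the mean of the 4 libraries (horizontal axis, log2), 1 point per library, with the number of genes tested beside each list's name. Vessel lists place control 1 (1.44 for endothelium) above cKO 2 (0.95), neuronal lists place cKO 2 (1.89 for the pan-neuronal list) far above control 1 (0.27), and the microglia list places control 1 (0.01) well above cKO 2 (-1.48).

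Microglial RNA was lowest in cKO 2, and control 1 was intermediate. All 30 genes of the microglia list were tested and all 30 were lower on average in control 1 and cKO 2, with a median of -1.46 (log2). For 29 the sides did not overlap, beside 30.2% of all genes. Only 5 were called by the 2-fold rule (beside 1.84%), namely C1qc, Spi1, Ikzf1, Fcer1g and Aif1. Without control 1, all 30 were called, beside a background of 13.6% for that rule, and the median was -2.22. Without cKO 2 the median was -0.73 and 5 genes were called, beside a background of 3.0% for that rule. The list summed to 34182 and 12719 against 54579.7 and 48980.2 CPM, so that microglial genes were abundant in every library.

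Csf1r, the receptor that microglia need to survive, was at 5365 and 1936 against 7212 and 6621 CPM. Ptprc, the leukocyte antigen CD45, was at 204 and 66.4 against 218 and 225 CPM and had the smallest difference of the list. In both genes control 1 was near the microglial side and cKO 2 was alone. Cx3cr1, the fractalkine receptor, was the member whose sides overlapped, at 4333 and 747 against 5158 and 2756 CPM. For this gene the control library was the higher one on each side.

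Against the library of the same genotype, control 1 held a median of 55.5% of the level of control 6 over the 30 genes, after TMM scaling, and cKO 2 held 21.8% of the level of cKO 5. C1qc and Spi1 departed from the rest of the list in control 1, at 15.04% and 20.5% of control 6, while the other 28 genes ran from 40.9% (Ikzf1) to 83.2% (Ptprc). In cKO 2 they did not depart: C1qc was at 13.6% and Spi1 at 16.8% of cKO 5, with Ikzf1 at 14.5% and Runx1 at 14.8% beside them and Trem2 highest at 28.4%. C1qc and Spi1 were also the only members of the list whose levels in control 1 and cKO 2 lay within 0.5 of each other on the log2 scale. Leaving both out, the median of the other 28 was -1.45. Spi1 and C1qc therefore mark the split more sharply than microglial RNA as a whole did. That comparison was made after the values were seen, and its cause was not tested.

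**Figure D3:**
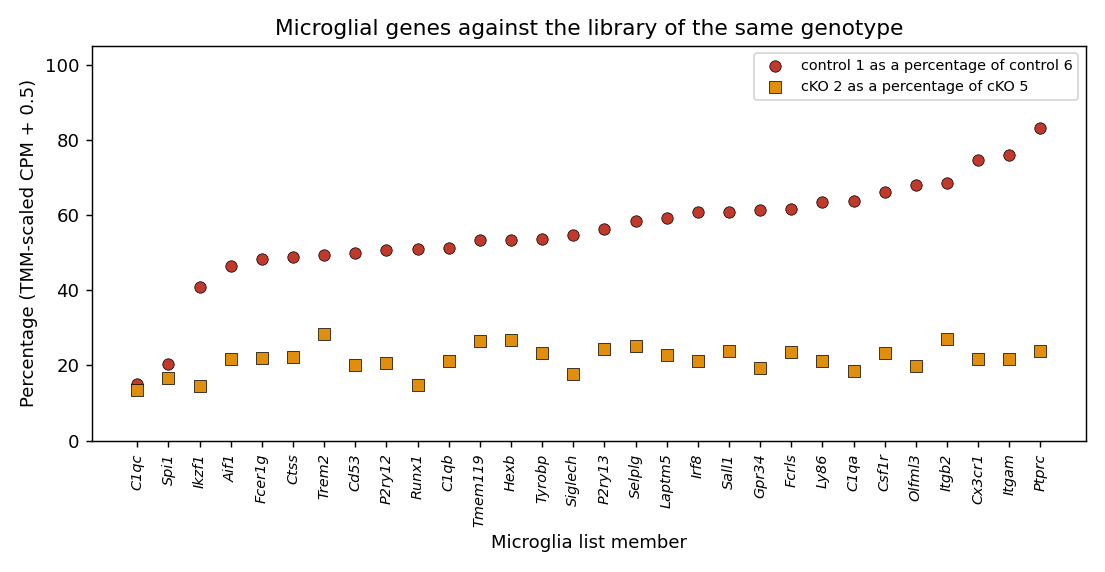
Level of each of the 30 microglia genes as a percentage (vertical axis) of the library of the same genotype on the microglial side, control 1 against control 6 and cKO 2 against cKO 5. In control 1, C1qc (15.04%) and Spi1 (20.5%) lie below the other 28 genes, and in cKO 2 all 30 lie between 13.6% and 28.4%.

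Lysosomal genes, which microglia express strongly, were lower on the neural and vessel side without overlap in 20 of 20 cases (beside 30.2% of all genes), with a median of -1.32, and 2 of them were called (beside 1.84%), Lamp1 among them. Without cKO 2 the median was -0.67. Ctsb, a cathepsin protease, was at 11890.3 and 5484 against 18628 and 17812 CPM. Lamp1, a lysosomal membrane protein that most cells make, was at 1146 and 775 against 2986 and 3668 CPM. Genes of axon-tract and lipid-associated microglia had a median of -1.32 (-0.56 without cKO 2). Of 14 tested, 12 were higher on the microglial side without overlap (beside 30.2% of all genes). None was called there, beside 1.84% of all genes. Spp1, a secreted phosphoprotein, was at 2949 and 974 against 3835 and 3736 CPM. These lists shared the order of the microglia list, with cKO 2 lowest and control 1 between.

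Genes of border-associated macrophages, which live at the meninges and vessels, were higher in cKO 5 than in control 6. Of 12 listed genes 11 were tested, and 1 (Ccl24) was called on the microglial side, beside 1.84% of all genes. The median between the sides was -1.44, and it was -0.80 without cKO 2 and -0.76 without cKO 5. All 11 had the higher level in cKO 5, with a median difference of 0.86 (log2), where the microglia list had -0.08. Mrc1, the mannose receptor, was at 165 and 85.9 against 204 and 370.3 CPM. Stab1, a scavenger receptor, was at 699 and 273 against 917 and 1277 CPM. Vessel RNA was thus lowest, and RNA of border-associated macrophages highest, in cKO 5. Of 13 tested monocyte and neutrophil genes 1 (Hp) was called on the microglial side, beside 1.84% of all genes. Their median was -1.14, or -0.56 without cKO 2 and -1.72 without control 1. Ngp, a neutrophil granule protein, was at 68.3 and 40.1 against 110.5 and 148 CPM. Lymphocyte markers could be tested for Cd79b only, which was at 61.8 and 24.8 against 109 and 118 CPM.

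Of the 98 genes called on the microglial side with a mean of at least 20 CPM (1.31% of 7489), 7 belonged to a microglia, lysosome or macrophage list, beside 67 of all 7489. After C1qc, the widest gaps were those of Slc16a10, Fam49b, Sumf1 and Spi1. Slc16a10, an aromatic amino acid transporter, was at 21.6 and 14.2 against 105.5 and 117 CPM. Fam49b, a regulator of actin through Rac1, was at 69.0 and 70.1 against 317 and 409 CPM. Sumf1, the enzyme that activates sulfatases, was at 35.7 and 47.3 against 215 and 187 CPM. Like Spi1 and C1qc, Fam49b and Sumf1 had nearly the same level in control 1 and cKO 2, while Slc16a10 was lower in cKO 2.

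Of the 98 genes, 47 had control 1 and cKO 2 within 0.5 on the log2 scale (beside 59.0% of all 7489), 46 were higher than that in control 1 and 5 were higher in cKO 2. The 47 lay on 17 chromosomes. Their median GC content over transcripts was 48.9% and their median transcript length 3496 bases, beside 49.2% and 3614.5 bases for all 7489 genes. For the 46 genes higher in control 1 these were 51.8% and 2911 bases. Genes called on the microglial side were protein coding in 73.4% of cases, against 91.0% on the neural and vessel side and 85.2% of all genes tested.

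Among genes with a mean of at least 20 CPM, 629 (8.4%) were called on the neural and vessel side. Sdc2, a heparan sulfate proteoglycan of the cell surface, was at 43.3 and 42.2 against 2.90 and 1.92 CPM. Its gap was 10.2-fold on the TMM-scaled values of the rule for calling genes. Htra1, a secreted protease, was at 63.5 and 75.3 against 6.56 and 7.36 CPM. Prom1, a membrane protein of neural progenitors, was at 68.2 and 79.0 against 8.36 and 6.53 CPM. In these genes the libraries of a side were close to each other. Tnc, the matrix protein tenascin C, and Slc6a15, a neutral amino acid transporter, had wide gaps too but were unequal within the side, with Tnc at 38.2 and 105.3 against 5.05 and 1.97 CPM and Slc6a15 at 25.2 and 74.3 against 2.79 and 2.07 CPM. Col5a2, Pcdh18, Ptprk, Ldlrad3, Parva, Coro2b and Fkbp10 completed the 12 widest.

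Within the neural and vessel side, the called genes differed in which library was the higher. Of the 1915 genes 1245 were higher in cKO 2 and 670 were higher in control 1. Those with the largest excess in cKO 2 were Lrrn1, Stmn4, Robo1, Ndrg4 and Dbndd1. Robo1, an axon guidance receptor, was at 26.7 and 127 against 7.08 and 7.15 CPM. Those with the largest excess in control 1 were Apold1, Cspg4, Lamc1, Ptprb and N4bp3, of which Cspg4 is a pericyte proteoglycan, Lamc1 a laminin chain of basement membrane and Ptprb a phosphatase of endothelium. Apold1, an endothelial early response gene, was at 86.7 and 45.6 against 8.70 and 4.92 CPM.

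**Figure D4:**
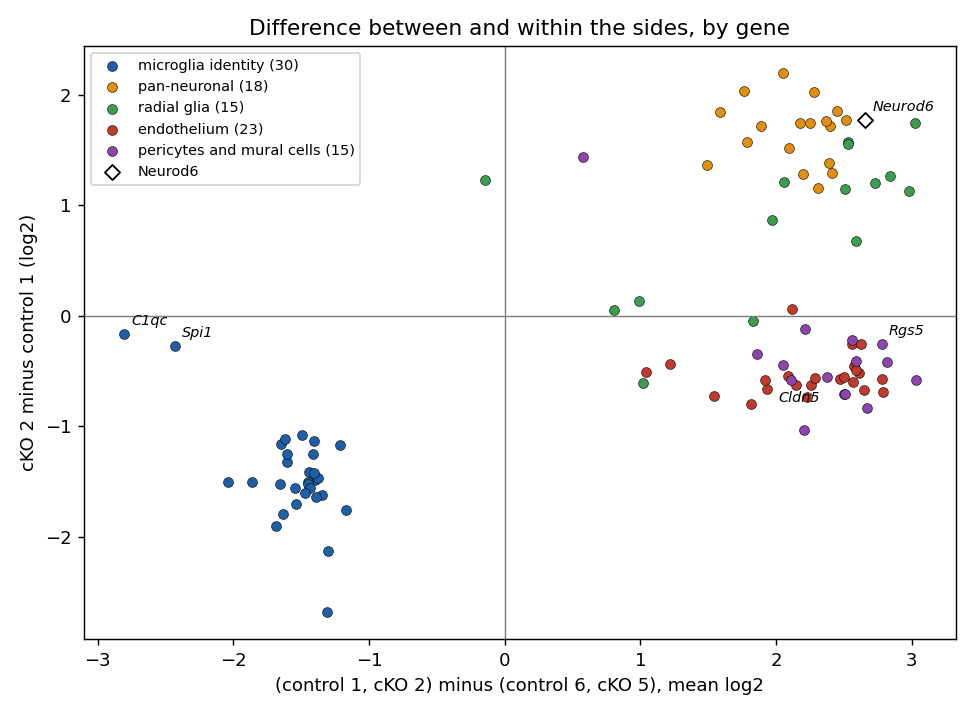
Difference between the sides (horizontal axis, mean log2 of control 1 and cKO 2 minus that of control 6 and cKO 5) against the difference cKO 2 minus control 1 (vertical axis, log2), 1 point per gene. Pan-neuronal genes lie at the upper right (medians 2.22 and 1.73), endothelial genes at the lower right (2.29 and -0.57), and microglia genes at the lower left (-1.46 and -1.51), with Spi1 and C1qc closer to the horizontal zero line.

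Among the 100 most abundant genes, the 5 with the largest difference to the neural and vessel side were Rgs5, Tuba1a, Sox11, Bsg and Slc2a1. Sox11, a factor of immature neurons, was at 1471 and 5114 against 484 and 339 CPM. The 5 with the largest difference to the microglial side were C1qc, Lamp1, Rnase4, Sirpa and Cd53. On that side the called genes were higher in cKO 5 than in control 6 in 207 of 293 cases. Gclm, a subunit of the enzyme that starts glutathione synthesis, was at 11.0 and 9.53 against 20.3 and 56.5 CPM.

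The split stood across the contrast of the labels, cKO against control. By the same 2-fold rule applied to genotype, 44 genes (0.276%) were higher in both cKO libraries and 40 (0.251%) in both controls. The quasi-likelihood test of edgeR, with Benjamini-Hochberg adjustment over 15951 genes, called 0 genes, with the smallest adjusted p at 0.9997. At an unadjusted p under 0.05, it had 49 genes, DESeq2 had 74 and limma-voom had 37, and neither of those tools called a gene after adjustment. These p-values measure only the spread between these 4 samples, which includes the split. Bach1 itself (chromosome 16, 87698945 to 87733346) was at 45.8 and 29.98 against 21.6 and 35.4 CPM. The genotypes overlapped, and so did the sides. A count over the whole gene does not check a deletion of part of it.

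Embryonic sex did not follow the split. Xist, the RNA of the inactive X chromosome, reached 181 CPM (control 1) and 275 CPM (cKO 5), with 0 reads in the other libraries. Ddx3y, on the Y chromosome, reached 112 CPM (control 6) and 143 CPM (cKO 2), with 0 reads in the other libraries. Each side and each genotype thus held 1 library with Xist and 1 with Y-linked RNA. None of 9 tested erythroid genes was called on either side, beside 12.01% and 1.84% of all genes. Of these, 6 were higher on the neural and vessel side without overlap (beside 34.4% of all genes), and the median was 0.92, or 0.60 without control 1. Hba-a1, an alpha globin gene with a near-identical copy, was at 140.3 and 114 against 54.4 and 45.9 CPM.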

How the data were processed

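Trizol total RNA was made into Illumina libraries, per the labels' protocols. The authors deposited read counts per Ensembl gene in 4 tables, each of a cKO and a control library. The deposited CPM values scale each count to its library total, with a count of 0 written as 0.5 reads. The submitters' processing notes list Bowtie2 2.2.3, TopHat2 2.0.12, HTSeq 0.6.0 and mm9. What role each had, how reads were counted, strandedness and cell isolation are not given in the sources here, so reads of overlapping or antisense genes cannot be told apart. Gene positions matched GRCm38 (90.3% identical among 21922 genes) and are given on that build.

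Counts were joined on gene ID. Values shared between tables (74595) were all identical, and 18723 of 21981 genes had a count in every library. Groups and replicate numbers came from sample titles. The genotypes were compared with edgeR 4.0.16 (R 4.3.3, quasi-likelihood, two-sided, filterByExpr with a minimum count of 10, adjusted p under 0.05, 2 residual degrees of freedom), which left 15951 genes. TMM factors were 1.03 for control 1, 0.917 for control 6, 1.15 for cKO 2 and 0.919 for cKO 5. The analysis of the sides used log2(CPM divided by the TMM factor + 0.5), computed from the counts. CPM printed for a gene is not divided by these factors. List values are medians over tested members. The genotype fit was also run on simulated data, and no result given here rests on that run.

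The sides, the 26 gene lists and the rules were chosen with earlier results of these data known. The rule for naming genes took the 5 markers and Bach1, the 12 widest gaps a side at a mean of at least 20 CPM, the 3 most abundant members and both extremes of each list, the 5 called genes with the largest difference within a side in each direction, and the 5 extremes among the 100 most abundant genes. C1qa, C1qb, Cx3cr1, Flt1 and other single exceptions were named after their values were seen, and some members are not reported here by name. Alternatives covered other scaling, DESeq2 1.42.0, limma 3.58.1, the pseudocount, the filter, the fold and each library left out. Promoters came from RefSeq tables (GRCm38.p6), which held 11236 of 15949 tested symbols.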

Additional observations from a re-analysis of the deposited data

How the results depend on the processing

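The gene counts depended most on the fold and on low values. Genes higher on the neural and vessel side numbered 2900 at a 1.5-fold gap, 327 at a 4-fold gap and 1217 with a pseudocount of 2, against 1915. Those on the microglial side numbered 1145, 16 and 139, and 163 with library totals only, against 293. Leaving out each library in turn gave 2187 to 3332 and 478 to 2172 genes, with a rule that a missing library makes easier to meet. List medians then ran from -2.22 to -0.73 for microglia, 1.35 to 3.05 for the pan-neuronal list, 0.68 to 2.56 for excitatory neurons, 1.75 to 2.93 for radial glia, 1.99 to 2.59 for endothelium and 1.91 to 3.02 for pericytes.

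With library totals only, 4 list medians near 0 changed sign, to 0.049 for cell cycle, 0.066 for immediate early, 0.12 for sex-linked and 0.087 for mitochondrially encoded genes. The lymphocyte median was 0.0060 with no filter, which adds genes of few reads. Leaving out a library also changed signs: immediate early genes ran from -0.64 to 0.29 (0.03 without control 6), the oligodendrocyte lineage from -0.51 (without cKO 2) to 0.93, and sex-linked genes from -3.08 to 3.01 (2.97 without control 1), since each library holds Xist or Y-linked RNA. Of 1515 values under alternatives, 1426 lay within the tolerance used, which was the pooled SD between the libraries of a side, 1.5 times for a count of genes and 0.05 for a correlation. Since that SD is wide, this does not show that a size was kept. Of the rest, 79 moved further and 10 changed sign. The genotype test called 0 genes under every alternative, with 10 to 1784 at an unadjusted p under 0.05 when 1 library was left out, the lone library being assumed to vary like the others. No paired analysis was possible because the control libraries (1 and 6) and the cKO libraries (2 and 5) share no replicate number.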

Other observations

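Genes that dividing or recently stimulated cells express had median differences near 0 between the sides. Of 22 cell cycle genes none was called on either side, beside 12.01% (neural and vessel) and 1.84% (microglial) of all genes. Without overlap, 9 were higher on the microglial side (beside 30.2% of all genes) and 2 on the other (beside 34.4%). The median difference was -0.19 (log2), which changed sign when library totals alone were used. Mcm3, a subunit of the replicative helicase, followed the median, at 229 and 187 against 277 and 278 CPM (control 1 and cKO 2 against control 6 and cKO 5). Top2a, a topoisomerase of dividing cells, was at 179 and 196 against 115 and 169 CPM in the same order. Immediate early genes had a median of -0.18, with the same change of sign. None of 16 was called on either side, beside the same 12.01% and 1.84%. Fos was at 156 and 24.96 against 70.1 and 40.9 CPM in the same order, with both controls above both cKO libraries. Within the neural and vessel side, 14 immediate early genes were lower in cKO 2 than in control 1 and 2 were higher (median -1.02). Between cKO 5 and control 6, 11 were lower in cKO 5 and 5 were higher (median -0.46). Each of these compares 1 library with 1 library.

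Of 84 ribosomal protein genes, many of which have near-identical processed copies, 42 were higher on the microglial side without overlap (beside 30.2% of all genes) and 3 on the other (beside 34.4%). The median was -0.43, or -0.26 without cKO 2, -0.25 without cKO 5 and -0.65 without control 6. For control 1 minus control 6 the median was -0.04, and for cKO 2 minus cKO 5 it was -0.77. The controls thus hardly differed, and the difference lay between the cKO libraries. By the 2-fold rule 1 gene (Rpl38) was called on the neural and vessel side, beside 12.01% of all genes. The 13 mitochondrially encoded genes had a median of -0.16, which also changed sign with library totals alone. None was called on either side, beside 12.01% and 1.84% of all genes.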
